A study of Solea senegalensis with 30 samples.

Results

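The comparison described here is that of kisspeptin-treated with control males of Senegalese sole (Solea senegalensis) at 2 d after injection, in the microRNAs (miRNAs) of blood plasma. Its members were chosen by the sample labels for sex, sampling point and treatment, and they are 10 of the 30 fish of the series, 6 kisspeptin males (A1-6, A1-7, A1-10, A1-12, A1-13 and A1-11-12) and 4 control males (A2-11, A2-12, A2-14 and A2-16). The label A1-11-12 does not say whether it stands for 1 fish or a pool, and it was counted as 1. Kisspeptin males received a single injection into the muscle of KISS2-10, a synthetic decapeptide of kisspeptin, at 250 µg/kg of body weight. Control males, called untreated in the labels, received phosphate buffered saline. All were adult breeders born in captivity (G1), a stock in which reproduction often fails. The treatment was given by tank, so that treatment and tank cannot be told apart. The other fish of the series are 5 kisspeptin and 5 control females at 2 d and 5 kisspeptin and 5 control males at 4 d.

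Kisspeptins are neuropeptides of the hypothalamus which, in mammals, act upstream of gonadotropin-releasing hormone and so of the release of gonadotropins by the pituitary. miRNAs are short RNAs that pair with messenger RNAs, mainly through their seed (bases 2 to 8), and lower their translation or stability. Those in plasma are carried in vesicles or protein complexes and come from many tissues and from blood cells, so that a level in plasma does not name the tissue of origin, and a change in the number of cells of a type and a change in their release cannot be told apart.

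The reads had been counted by isomiR, that is by distinct read sequence, under a miRNA name, and the counts of all isomiRs of a name were summed here. Sorted alphabetically, miR-122-3p is the first of these names and miR-459 the last. miRNAs that sort before or after them were not analysed here, and every rank and share below is within the table, not within plasma. In the 10 males, 150 of 172 names and 1367 of 2129 isomiRs had at least 1 count. Totals ranged from 29918 to 157656 counts per library, with a median of 57200 in kisspeptin males and 40607.5 in control males, against a range from 25468 to 191846 in the series. A count of 0 allows a level of up to 19.03 to 100.3 cpm (counts per 1000000 counts of a library), depending on the library (3 counts of its total, counting error only). The log2 total was 0.55 higher in kisspeptin males (two-sided exact permutation test, p = 0.229, n = 6 and 4), and no test of the number of names counted, of the share of 21 to 22 nt or of the share of the 10 most counted names passed 0.05 either (exact permutation p from 0.352 to 0.714, 4 measures tested, adjusted p from 0.622 to 0.714). No library was identical to another of its group (21 pairs).

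The following sequences are the most counted isomiR of the names on which the results turn, read 5′ to 3′ from the deposited counts, where U is written as T. Capitals mark the seed. The first lines are the names with the highest levels in these males.

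miR-21: tAGCTTATcagactggtgttgg
miR-22a: aAGCTGCCagctgaagaactgt
miR-16b: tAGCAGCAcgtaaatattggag
miR-15a: tAGCAGCAcggaatggtttgt
miR-451: aAACCGTTaccattactgagt
miR-146a: tGAGAACTgaattccatagatgg
miR-126a-3p: tCGTACCGtgagtaataatgca
miR-1a-3p: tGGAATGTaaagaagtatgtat
miR-206-3p: tGGAATGTaaggaagtgtgtgg
miR-199a-5p: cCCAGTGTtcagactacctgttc
miR-184-3p: tGGACGGAgaactgataagggc
miR-20a-5p: tAAAGTGCttatagtgcaggtag
miR-29b: tAGCACCAtttgaaatcagt
miR-30b: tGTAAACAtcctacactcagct

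The last 7 of these lines are names with the smallest p in the comparison. The names that share a seed here are miR-16b with miR-15a (AGCAGCA) and miR-1a-3p with miR-206-3p (GGAATGT).

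The counts of these males were dominated by few names of the table. The 4 highest, miR-21, miR-22a, miR-16b and miR-451, held 54.7% of the counts of the 10 males, and the 10 most counted names of all held 77.1%. Levels are given in log2 cpm, where 1 count was added to each value in proportion to the library and totals were corrected with the trimmed mean of M values (TMM). A count of 0 stands at 3.72 on this scale, and levels are relative to the names counted here. miR-21, an miRNA of most vertebrate tissues, held 17.0% of the counts. Its level in kisspeptin males ran from 13.16 through a median of 17.52 to 17.94, and was 17.40, 17.73, 17.86 and 17.48 in the control males A2-11, A2-12, A2-14 and A2-16. In A1-10 and A1-12, miR-21 was far below the other 8 males, whereas the other 4 kisspeptin males lay among or next to the controls.

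miR-451 is an erythroid miRNA in zebrafish and mammals. It ranged from 15.00 through a median of 17.00 to 19.11 in kisspeptin males and was 15.58, 15.13, 16.28 and 16.61 in the control males, in the same order. Its level in A1-6, 19.11, was the highest of any name of the table in any of these males. The other members of this upper group varied less. The SD over the 10 males was 0.35 for miR-146a, an miRNA induced by immune signals in mammals, 0.41 for miR-15a and 0.47 for miR-22a, against 1.65 for miR-21 and 1.27 for miR-451. miR-16b, an abundant miRNA of mammalian red blood cells, had 16.53, 16.64 and 17.23 as its lowest, median and highest level in kisspeptin males, and 16.71, 16.55, 14.79 and 16.31 in the control males. The control male A2-14 alone was low, by more than 1 log2 unit from any other male.

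**Figure D1:**
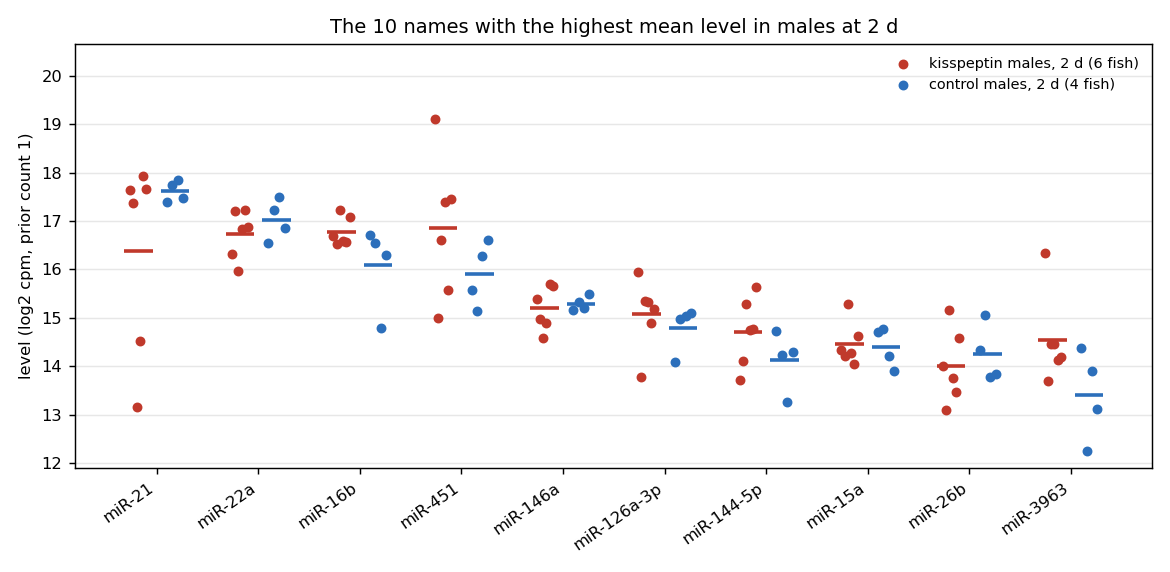
Levels (log2 cpm, vertical axis) of the 10 names with the highest mean level in males at 2 d. Each point is a fish, red for the 6 kisspeptin males on the left of each name and blue for the 4 control males on its right, and bars are group means. The 2 low kisspeptin males of miR-21 (13.16 and 14.51) and the high one of miR-451 (19.11) stand apart, and the groups overlap at every name.

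Among these 10 names, 5 had a log2 fold change above 0 and 5 below 0, from -0.59 to 1.41, with standard errors from 0.34 to 0.79 (quasi-likelihood test of edgeR, adjusted p from 0.559 to 0.864). Every standard error (SE) given with edgeR was worked back from its test, as the absolute log2 fold change over the square root of the F statistic. Such values are approximate, most of all where a whole group was at 0. miR-22a averaged 16.74 ± 0.50 in kisspeptin males and 17.03 ± 0.41 in control males (SD, n = 6 and 4), a log2 fold change of -0.37 (SE 0.34). miR-146a averaged 15.20 ± 0.45 in kisspeptin males and 15.29 ± 0.15 in control males, with -0.18 (SE 0.36). None of these abundant names passed the test. miR-451 had 1.41 (SE 0.79, adjusted p = 0.559), and miR-3963, a name whose role is not given here, had 1.15 (SE 0.61, adjusted p = 0.559). Without A1-6, the value was 0.47 for miR-451 and 0.38 for miR-3963.

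Over all names, 123 passed the filter on low counts (at least 1 cpm in at least 4 of the 20 fish at 2 d) and were tested. At an adjusted p (Benjamini-Hochberg) under 0.05, 0 names (0.0%) differed between kisspeptin and control males in edgeR and in limma-voom, and 1 did in DESeq2, miR-1a-3p (log2 fold change 5.28, adjusted p = 0.0167). At an unadjusted p under 0.05, edgeR called 10 names (8.13%), of which 7 were higher (5.69%) and 3 lower (2.44%) in kisspeptin males. The log2 fold change was above 0 in 60 names and below 0 in 62, with a median of -0.10, which was -0.37 with limma-voom (39.0% of names above 0, against 48.8% with edgeR). The fish of a group differed widely, with a common dispersion of 1.72, which is a coefficient of variation of 131%. In data simulated with the fitted dispersions, the test found 2 of the 21 names changed by 2 log2 units. It found 10 of the 20 changed by 4 and 17 of the 20 changed by 8. Changes of 2 log2 units would thus mostly not have been detectable in these fish. All these changes were made at once among the 123 names. The adjustment is easier to pass when many names change, so fewer might be found where few change. Absences of whole isomiRs from single libraries, described below, were not simulated.

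**Figure D2:**
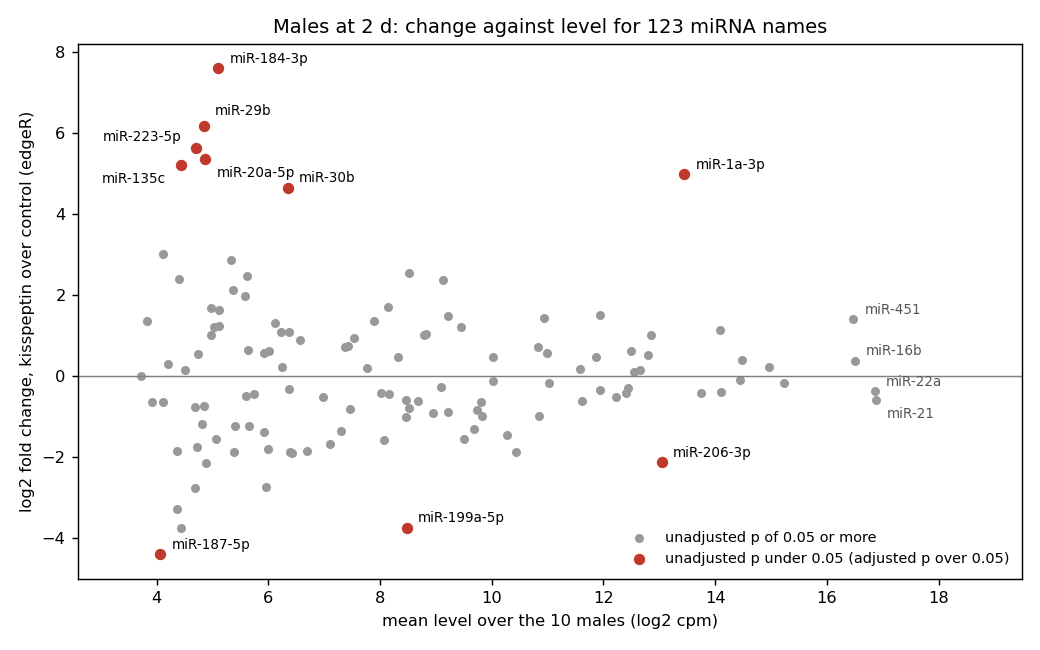
Log2 fold change of kisspeptin over control males (vertical axis, edgeR) against the mean level over the 10 males (horizontal axis, log2 cpm) for the 123 names tested. Red points are the 10 names with an unadjusted p under 0.05, of which 6 were at 0 in every fish of one group, and no name passed after adjustment.

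miR-199a-5p had the smallest p of all names, and it was the only 1 of the 123 (0.813%) in which the groups did not overlap. This miRNA comes from a cluster with miR-214 that is active in mesenchyme and in developing skeleton in mouse and zebrafish. Its counts were 2, 5, 12, 0, 14 and 53 in the kisspeptin males A1-6, A1-7, A1-10, A1-12, A1-13 and A1-11-12, and 83, 167, 57 and 131 in the control males A2-11, A2-12, A2-14 and A2-16. Its level in kisspeptin males was 3.72 at the lowest, 6.95 at the median and 8.68 at the highest, and 10.59, 11.19, 10.64 and 11.39 in the control males. All 6 kisspeptin males thus lay below every control male. The deepest library, A1-11-12, was a kisspeptin one, and the part of depth was not tested. The log2 fold change was -3.75 (SE 1.30), with an adjusted p of 0.389 in edgeR, from 0.122 to 0.747 over its alternatives, and it stayed between -4.14 and -3.21 when any one male was left out. The exact permutation test of its levels gave p = 0.00952 (unadjusted, where 8 of 123 names, 6.5%, were under 0.05, and 0.00476 is the smallest value that 6 fish against 4 can give). Separation of all fish in a given direction is 1 of the 210 splits, so 1 such name among 123 is not unusual.

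The reads of miR-199a-5p came in different forms in different fish. The most counted isomiR, the 23 nt form printed above, held 49.4% of the name's counts. It had 71, 0, 57 and 131 counts in the control males A2-11, A2-12, A2-14 and A2-16, and 0 in all 6 kisspeptin males. With 3 counts as the limit in each kisspeptin library, for counting error only, its mean level was at least 32.3-fold lower in kisspeptin males (0 cpm, against 1709 cpm in control males). Its adjusted p was 0.440 in edgeR, 0.230 in DESeq2 and 0.00348 in edgeR without the filter on low counts. In A2-14 and A2-16 this one form made up all the counts of the name, and in A2-12 it was absent from 167 counts. Without it, the log2 fold change of the name was -1.83 (adjusted p = 0.747). The opposite arm of the hairpin, miR-199a-3p, had a log2 fold change of the opposite sign. It was counted in all 6 kisspeptin males and in 3 of 4 control males, at 10.02 ± 2.42 in kisspeptin males and 7.78 ± 2.83 in control males, with 2.38 (SE 1.26, adjusted p = 0.559). The arms of miR-199a were singled out after their values were seen. Of 14 hairpins with both arms tested, the arms had the same direction in 8 and opposite directions in 6.

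miR-1a-3p, a miRNA of skeletal and heart muscle in vertebrates, was higher in most kisspeptin males. The level in kisspeptin males was 11.59 at the lowest, 16.45 at the median and 17.12 at the highest, against 11.47, 12.49, 7.69 and 8.32 in the control males. In 5 of 6 kisspeptin males the level was above every control male, and A1-6 lay within the range of the controls. The log2 fold change was 5.00 (SE 1.81, edgeR adjusted p = 0.389, from 0.0167 to 0.750 over its alternatives), and the exact permutation test of the levels gave p = 0.00952, unadjusted.

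A single isomiR held most of these counts. It is the 22 nt form of miR-1a-3p printed above, with 90.2% of the name's counts. This form had 0, 4829, 8060, 4383, 3647 and 16354 counts in the 6 kisspeptin males and 0 in all 4 control males. For counting error only, its mean level was at least 1153-fold higher in kisspeptin males (log2 fold change 15.56, SE 3.82, edgeR adjusted p = 0.409). It passed in DESeq2 (adjusted p = 8.97e-21, with a fitted log2 fold change of 27.8 that is not a size) and in edgeR without the filter on low counts (adjusted p = 4.5e-20). The control males A2-11 and A2-12 had 0 counts of it among 153 and 410 counts of the name, and in A1-6, too, all counts of the name were of other forms. The remaining isomiRs of miR-1a-3p summed to 2131, 560, 4878, 3230, 5560 and 16936 cpm in kisspeptin males and to 3896, 6273, 234 and 358 cpm in control males, and these ranges overlap. For the name without its most counted isomiR the log2 fold change was 1.42 (adjusted p = 0.750).

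miR-206-3p is the other muscle miRNA with high counts, made in skeletal muscle in fish and mammals, and it differs from miR-1a-3p outside the seed. Its level in kisspeptin males was 11.43 at the lowest, 12.69 at the median and 13.31 at the highest, and 11.04, 15.82, 13.93 and 14.53 in the control males. All control males but A2-11 were above every kisspeptin male, and A2-11 was below every kisspeptin male. Its log2 fold change had the opposite sign to that of miR-1a-3p, at -2.12 (SE 1.00, unadjusted p = 0.0447, adjusted p = 0.559), from -2.51 to -1.26 with a male left out, and -0.10 without its most counted isomiR. When all reads with the seed GGAATGT (miR-1a-3p, miR-206-3p and miR-1c) were summed, kisspeptin males had 96226 ± 47167 cpm and control males 29975 ± 25592 cpm (SD, n = 6 and 4), with a log2 fold change of 1.81 (SE 0.98, adjusted p = 0.572 over 271 seeds). The seed total of A1-6, 7719 cpm, was again within the control range, from 5246 to 65302 cpm.

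**Figure D3:**
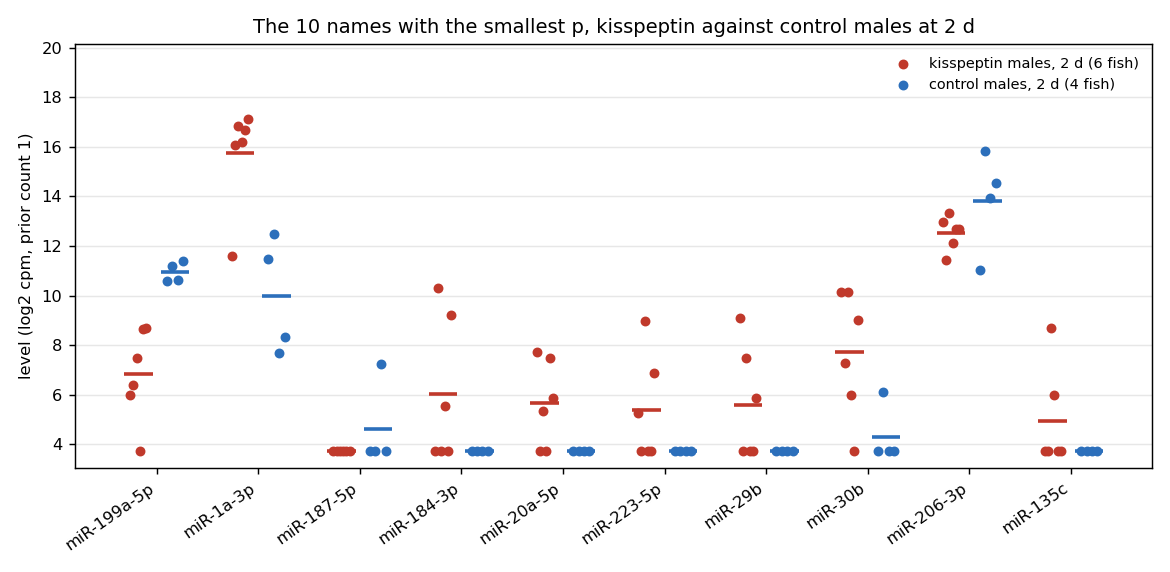
Levels (log2 cpm, vertical axis) of the 10 names with the smallest p between kisspeptin males (red, left, 6 fish) and control males (blue, right, 4 fish). Bars are group means and points at 3.72 are counts of 0. The groups do not overlap in miR-199a-5p, and 6 of the 10 names were at 0 in every fish of one group.

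Of the 10 names with the smallest p, 6 were at 0 in every fish of one group, so that their fitted fold changes depend on the prior count and are not sizes. miR-184-3p, an miRNA of lens and cornea in vertebrates, had 88 counts in A1-7, 77 in A1-11-12, 2 in A1-12 and 0 in the other kisspeptin males and in all control males. Its mean was 345 cpm in kisspeptin males, 4.69-fold the 73.5 cpm which 0 counts allow on average in control males. Nearly all its counts came from 2 fish. miR-223-5p had 1, 35 and 14 counts in A1-6, A1-10 and A1-11-12, and its mean was 1.5-fold that limit. miR-29b, which targets collagen messages in mammals, had 21, 12 and 6 counts in the same fish, with a mean 1.35-fold the limit. miR-135c was counted in A1-10 (29) and A1-12 (3), with a mean 1.18-fold the limit. These folds are of means, take a 0 as counting error only and leave out the spread between fish. In each of these names the median of kisspeptin males was under 73.5 cpm. Exact permutation tests of their levels gave p from 0.3 to 0.467, unadjusted. miR-20a-5p, of the miR-17-92 cluster, had 8, 2, 6 and 6 counts in A1-6, A1-10, A1-13 and A1-11-12. Its mean in kisspeptin males, 63.1 cpm, was under that limit, although A1-6 (140 cpm) and A1-13 (169 cpm) were above it. miR-187-5p had 5 counts in A2-14 (167 cpm) and 0 in the other males at 2 d. Its mean in control males, 41.8 cpm, was under the 52.9 cpm which 0 counts allow on average in kisspeptin males. No fold is given for either name. These names lie at low mean levels in the plot of change against level. miR-30b, of the miR-30 family, was counted in both groups. Its level in kisspeptin males was 3.72 at the lowest, 8.16 at the median and 10.13 at the highest, and in control males it was 6.11 in A2-12 and 3.72 in the other 3, with a log2 fold change of 4.66 (SE 2.15, adjusted p = 0.559). It ran from 4.07 to 8.04 with a male left out, the highest without A2-12, when every control male was at 0. Summed over the 6 names with the seed GTAAACA, the miR-30 family had 13395 ± 7339 cpm in kisspeptin males and 10726 ± 1701 cpm in control males (log2 fold change 0.44, SE 0.60, adjusted p = 0.894).

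Other names stood out by their levels rather than in edgeR. miR-126a-5p, the minor arm of the endothelial miR-126 in zebrafish and mouse, was at 8.18, 9.29 and 9.91 (lowest, median and highest) in kisspeptin males and at 8.43, 7.89, 6.95 and 3.72 in control males. Its exact permutation p was 0.0143, unadjusted, and its edgeR log2 fold change was 1.71 (SE 1.66, adjusted p = 0.791). Its most counted isomiR, with 81.4% of the name's counts, was counted in 6 kisspeptin males and in 1 control male. Without this isomiR the log2 fold change of the name was -0.40. The main arm, miR-126a-3p, had 15.08 ± 0.72 in kisspeptin males and 14.79 ± 0.47 in control males, with a log2 fold change of 0.23 (SE 0.46). miR-181a-3p was absent from 4 of 6 kisspeptin males, with 7.61 in A1-10 and 6.03 in A1-11-12, and present in all control males at 8.08, 7.38, 8.31 and 7.29 (exact permutation p = 0.0190, unadjusted; edgeR log2 fold change -2.75, SE 1.52, adjusted p = 0.559). It was singled out after its values were seen. Of the 8 of 123 names (6.5%) under 0.05 in the exact permutation test, those not yet named were miR-216a, miR-22-3p, miR-458 and miR-214-5p. All of these were lower in kisspeptin males (exact permutation p from 0.0429 to 0.0476, unadjusted).

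The isomiRs were tested separately, 684 of them after the same filter. In edgeR 0 (0.0%) had an adjusted p under 0.05, and 72 (10.5%) had an unadjusted p under 0.05, 41 higher (5.99%) and 31 lower (4.53%) in kisspeptin males. A log2 fold change above 0 was found in 57.2% of them. limma-voom called 0, DESeq2 called 13, of which 11 were higher and 2 lower, and edgeR called 20, 14 higher and 6 lower, when isomiRs with few counts were kept. Most of the DESeq2 calls had fitted log2 fold changes from 20.8 to 27.8. These exceed the log2 total of the deepest library, 17.3, and are not sizes. The dispersion was larger than that of names, with a coefficient of variation of 207%. Simulated log2 changes of 8 were recovered in 26 of 66 isomiRs, with many other isomiRs changed in the same simulation. The isomiRs with the smallest p, apart from the forms of miR-1a-3p and miR-199a-5p given above, were the following, with bases 2 to 8 of each form in capitals.

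miR-21, 20 nt: tAGCTTATcagactggtgtt
miR-21, 23 nt: cTAGCTTAtcagactggtgttgg
miR-144-3p, 21 nt: cTACAGTAtagatgatgtact

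The 20 nt form of miR-21 lacks the last bases of the main form. It was at 838, 3395, 0, 2412, 2032 and 1871 cpm in the kisspeptin males and at 0 in all control males, which had 8571 to 15624 counts of miR-21. It held 0.715% of the counts of the name, and its mean was at least 23.9-fold higher in kisspeptin males. Its log2 fold change was 9.98 (SE 2.07, edgeR adjusted p = 0.101), and the adjusted p was 0.0119 without A1-10, the one kisspeptin male with 0 counts of this form, 0.00348 without the filter and 4.59e-06 in DESeq2. The 23 nt form of miR-21 begins 1 base earlier and so has a shifted seed. It had 5, 19, 4, 4, 0 and 22 counts in kisspeptin males and 0 in control males, at least 1.60-fold higher (adjusted p = 0.440 in edgeR and 0.0278 in DESeq2). The form of miR-144-3p, an erythroid miRNA made with miR-451 in zebrafish and mouse, had 106 counts in A2-11, 40 in A2-16 and 0 in the other control males and in all kisspeptin males, at least 17.3-fold lower in kisspeptin males (adjusted p = 0.440 in edgeR, 0.00348 without the filter and 0.0989 in DESeq2). In each of these forms at least 1 group was wholly at 0. The folds given take a 0 as counting error only and leave out the spread between fish.

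In 4 isomiRs of 684 (0.585%) the groups did not overlap in cpm without the TMM correction, 1 higher and 3 lower in kisspeptin males. They are shown because, unlike the forms above, each separates all fish by treatment on that scale. Separation in a given direction is 1 of the 210 splits of 6 fish against 4, a share of 0.00476. The shares of isomiRs found, 0.146% higher and 0.439% lower, are not above it, so the number of such isomiRs is no result in itself. Overlap of isomiRs after the correction, which the levels of names carry, was not examined and may differ.

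miR-16b, 18 nt: aGCACGTAaatattggag
miR-203b-3p, 22 nt: tGAAATGTtcaggaccacttga
miR-27c, 21 nt: tTCACAGTggttaagttctgc
miR-458, 22 nt: aTAGCTCTttaaatggtactgc

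The 18 nt form of miR-16b lacks the first 4 bases of the main form and so has another seed. It was at 140, 236 and 367 cpm (lowest, median and highest) in kisspeptin males and at 127, 61.2, 134 and 0 cpm in control males, with at most 22 counts in a fish, and its log2 fold change was 1.90 (SE 1.70). The form of miR-203b-3p, of a family known from skin in the mouse, had 11, 10, 4, 2, 4 and 12 counts in kisspeptin males and 28, 14, 24 and 17 in control males, which per total left no overlap, with a log2 fold change of -1.92 (SE 1.07). The 21 nt form of miR-27c had the most counts of the 4. It was at 419, 979 and 1269 cpm in kisspeptin males and at 1859, 2004, 1705 and 2146 cpm in control males, with -0.84 (SE 0.65). The log2 fold change of the whole name was -0.42 (SE 0.43). The form of miR-458 had 3 counts in A1-10, 2 in A1-12 and 0 in the other kisspeptin males, and 14, 17, 8 and 9 in the control males, with -3.99 (SE 1.53). None passed the adjustment in edgeR (adjusted p from 0.440 to 0.826), and the form of miR-458 passed in DESeq2 (log2 fold change -4.29, adjusted p = 0.0449).

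Major isomiRs were often either abundant or wholly absent. Of 84 isomiRs that held at least 20% of the counts of their name in these males, 39 were at 0 in at least 1 library with 100 or more counts of the name, and this concerned 91 of 476 pairs of isomiR and library (19.1%). The share per fish ran from 17.9% to 23.8% in kisspeptin males and from 8.33% to 29.2% in control males. This measure was chosen after the counts had been seen and is given as a description. The 22 nt form of miR-21, 83.7% of the name, was at 0 in A1-10 and A1-12, the fish with the low levels of miR-21, where 653 and 1403 counts of other forms remained, and held from 76.6% to 90.4% in the other 8 males. Without it, the log2 fold change of miR-21 was 0.26, against -0.59 with it. The 21 nt form of miR-451, 60.5% of the name, was at 0 in 3 kisspeptin males (A1-7, A1-10 and A1-13) and in 3 control males (A2-11, A2-12 and A2-14), and held from 66.9% to 85.3% in the others. The remaining forms of miR-451 summed to 36633 to 113436 cpm in kisspeptin males and to 38715 to 95661 cpm in control males, and these ranges overlap. The main form of miR-16b was at 0 in A2-14 alone, the control with the low level of that name. Among libraries with 100 or more counts of the name, the main form of miR-1a-3p was at 0 in A1-6, A2-11 and A2-12. That of miR-199a-5p was at 0 in A2-12. Folds given as at least a value take a 0 as counting error only. They cover neither such absences nor the spread between fish. What sets these absences was not tested.

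**Figure D4:**
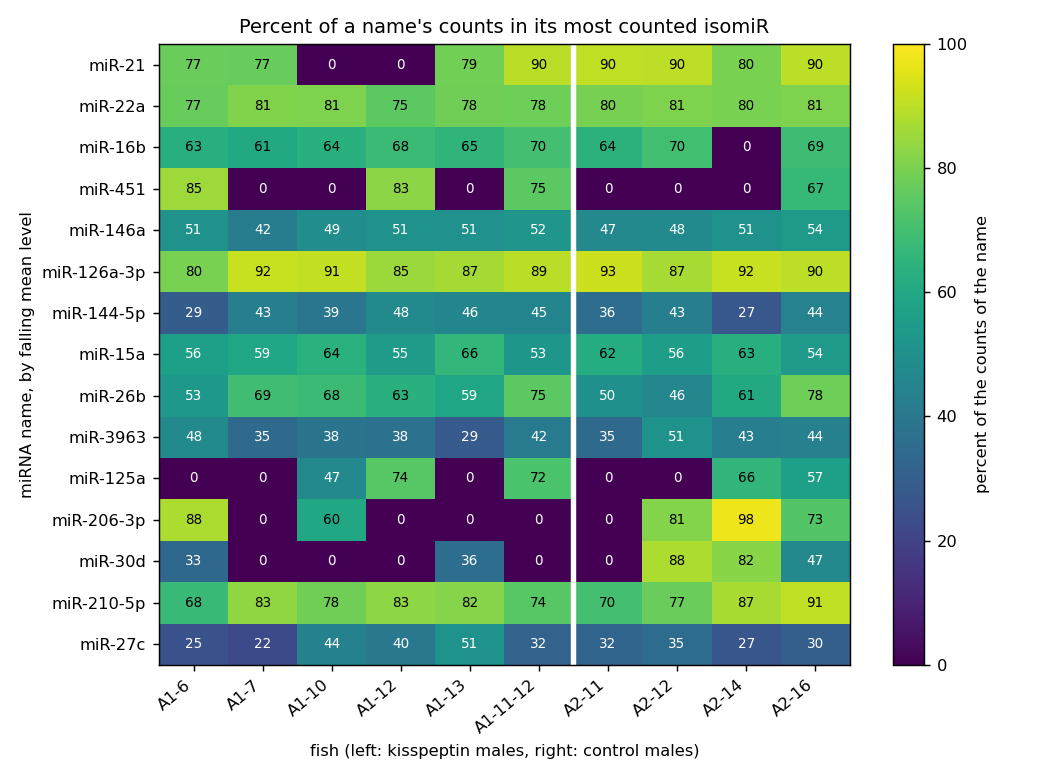
Percent of the counts of a name that its most counted isomiR held in each fish, for the 15 names with at least 100 counts in every male, ordered by falling mean level. Kisspeptin males are left of the white line and control males right of it. Names such as miR-22a (from 74.9% to 81.2%) stayed within a narrow range, whereas miR-21, miR-16b, miR-451, miR-125a, miR-206-3p and miR-30d had fish at 0.

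The share of the most counted isomiR was compared in the 15 names with at least 100 counts in every male. No test passed 0.05, adjusted or not, in two-sided exact permutation tests (smallest p = 0.0619, adjusted p = 0.612, for miR-30d, n = 6 and 4). In miR-22a the share was 78.3% ± 2.42 in kisspeptin males and 80.2% ± 0.593 in control males, in miR-146a 49.4% ± 3.58 in kisspeptin males and 50.0% ± 3.01 in control males, and in miR-15a 58.9% ± 5.32 in kisspeptin males and 58.8% ± 4.56 in control males (SD, n = 6 and 4). The difference in miR-22a was -1.91 percentage points (p = 0.162, exact permutation). In miR-30d, of the miR-30 family, a 24 nt form held 33.2% and 36.1% in A1-6 and A1-13 and 0 in the other kisspeptin males, and 0, 87.9%, 82.4% and 47.0% in the control males.

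Lists of miRNAs known from other work as enriched in a tissue or cell type were read as groups. Of the 4 muscle names tested, of 8 listed (miR-1a-3p, miR-206-3p, miR-1c and miR-133a-3p), 1 was higher and 1 lower at an unadjusted p under 0.05, with a median log2 fold change of 0.23, beside 8.13% of all names and a median of -0.10. Names at 0 in a whole group have no true fold, and with the 9 such names at their bound the median of all names was 0.00 and those of the lists did not move. Sums of the lists are in cpm without the TMM correction. The summed level of the muscle list in kisspeptin males was 7719, 108145 and 152573 cpm (lowest, median and highest), and 8659, 74436, 19754 and 30347 cpm in the control males. In the kisspeptin males other than A1-6, miR-1a-3p made up most of this sum, at 85075 to 132537 cpm. miR-206-3p was at 3360 to 11499 cpm in kisspeptin males and at 2903 to 63558 cpm in control males. miR-133a-3p, made with miR-1 in muscle of vertebrates, was a minor name here. It was counted in 2 of 6 kisspeptin males and in 3 of 4 control males, with a log2 fold change of 1.09 (SE 2.23) where its mean level was 5.84 in kisspeptin males and 6.83 in control males. Of the 6 erythrocyte names, 0 passed an unadjusted p under 0.05, with a median of 0.40 and 4 above 0. They summed to 177623, 324764 and 475481 cpm in kisspeptin males and to 257468, 166376, 142356 and 240345 cpm in control males, or 28.2% of all counts. Markers of red blood cells were thus plentiful in both groups, in plasma in which no haemolysis had been seen by eye, and the fish with the lowest muscle sum, A1-6, had the highest erythrocyte sum; the part of either in the other was not tested.

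**Figure D5:**
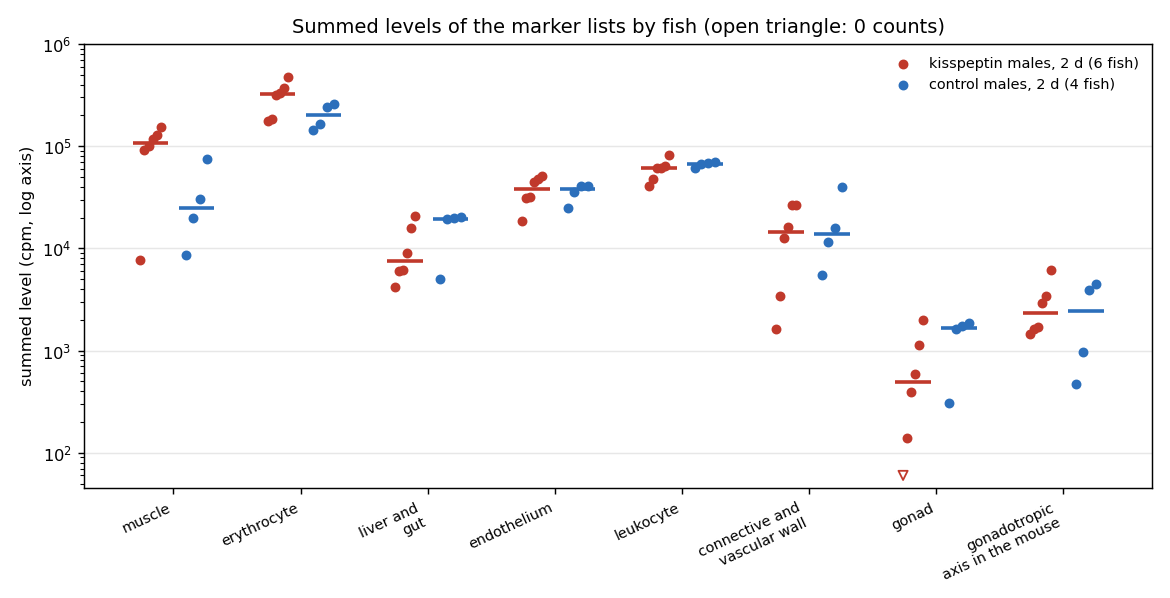
Summed level (cpm, log axis) of each list of tissue-enriched miRNAs in kisspeptin males (red, left, 6 fish) and control males (blue, right, 4 fish). Bars are medians and the open triangle is a sum of 0. In the muscle list, without the TMM correction, 5 kisspeptin males lie above every control male, and miR-1a-3p makes up most of the sum in these 5. A1-6 (7719 cpm) lies below every control male, next to A2-11 (8659 cpm), and the other lists overlap more widely.

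In the liver and gut list (miR-122-5p, miR-122-3p, miR-192 and miR-194a) 0 of 4 names passed an unadjusted p under 0.05, with a median of -0.48. Over all names, 8.13% passed and the median was -0.10, and the lists below are to be read beside these values. miR-192, an miRNA of liver and intestine in mammals, was at 10.69, 12.01 and 12.66 in kisspeptin males and at 12.10, 11.92, 12.01 and 12.61 in control males (log2 fold change -0.35, SE 0.58). In the endothelial list 0 of 3 names passed, with a median of 0.23. The summed level of the leukocyte list had a median of 61306 cpm in kisspeptin males and 67555 cpm in control males. In this list 1 of 7 names was higher and 0 lower, with a median log2 fold change of 0.48. The one higher was miR-223-5p, whereas the main arm of this myeloid miRNA of zebrafish and mammals, miR-223-3p, with 6718 counts, had a log2 fold change of 0.10 (SE 1.10). In the list of connective tissue and vascular wall 0 of 6 were higher and 1 lower (miR-199a-5p), with a median of -0.52. There, miR-214-3p had -1.88 (SE 1.08) and miR-143-3p, of smooth muscle in zebrafish and mouse, 0.18 (SE 1.37). miR-143-3p held 14.41 in A2-11, against 9.58, 9.98 and 10.30 in the other control males, and was between 9.13 and 14.29 in kisspeptin males. Its most counted isomiR, with 80.3% of the name's counts, was counted in 2 kisspeptin males and, among the controls, in A2-11 alone.

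For reproduction, only the gonad list (miR-202) and the list of the gonadotropic axis in the mouse were read. Other names may be tied to it as well, and the paper relates miR-199a to reproduction. miR-202, an miRNA of testis and ovary in fish and mammals, was counted mostly as its 5p arm. miR-202-5p was at 3.72, 8.98 and 10.91 in kisspeptin males and at 10.41, 10.53, 10.33 and 8.12 in control males, with a log2 fold change of -0.92 (SE 0.95, adjusted p = 0.791). The groups overlapped, with A1-7 at 0 counts. miR-202-3p had 8 counts in all. Of the 5 tested names tied in the mouse to the gonadotropic axis, such as miR-155 and the miR-200 family, 0 passed an unadjusted p under 0.05, with a median of 0.47. The share over all names was 8.13%, with a median of -0.10. miR-155 was at 5.98, 9.74 and 11.48 in kisspeptin males and at 9.95, 9.95, 3.72 and 7.47 in control males (log2 fold change 1.05, SE 1.09). miR-429-3p was counted in 1 kisspeptin male (40 counts in A1-11-12) and in 3 control males (10, 16 and 7 counts), with a log2 fold change of -1.88 (SE 1.71, adjusted p = 0.791). Without A1-11-12 every kisspeptin male was at 0, and the fitted value was -6.46. All 3 names of the seed AATACTG together, miR-200b-3p, miR-200c and miR-429-3p, had 727 ± 415 cpm in kisspeptin males and 1079 ± 652 cpm in control males (log2 fold change -0.50, SE 0.91).

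The effect in males at 2 d was set beside that in females at 2 d and in males at 4 d, which had their own control fish. By the paper's sampling plan, the females at 2 d came from the same tanks as the males at 2 d. Treatment and tank cannot be told apart in either sex, and a difference between tanks could appear in both. No difference between males and females passed the adjustment in edgeR (0 of 123 names, 7 at an unadjusted p under 0.05, 5.69%). miR-199a-5p had a log2 fold change of -3.75 in males and 2.34 in females, a difference of -6.09 (SE 1.83, adjusted p = 0.20), which passed in limma-voom (adjusted p = 0.0483) and in DESeq2 (adjusted p = 0.0367). miR-1a-3p had 5.00 in males and 4.67 in females, a difference of 0.33 (SE 2.01, adjusted p = 0.972). miR-135c, with counts in few fish, had a fitted difference of 12.14 (SE 3.39, adjusted p = 0.20).

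The males at 4 d were kept in other tanks than those at 2 d, so that day and tank cannot be told apart. Between 2 d and 4 d no difference passed in edgeR (0 of 125 names, 12 at an unadjusted p under 0.05, 9.6%). miR-1a-3p had 5.00 at 2 d and -2.04 at 4 d in the separate fits, and the difference was 7.16 (SE 1.91, adjusted p = 0.141 in edgeR and 0.00184 in DESeq2). miR-199a-5p had -3.75 at 2 d and 2.15 at 4 d, with a difference of -5.76 (SE 1.93, adjusted p = 0.176 in edgeR and 0.0162 in DESeq2). miR-29b and miR-223-5p had fitted differences of 11.16 (SE 3.02, adjusted p = 0.143) and 11.12 (SE 3.37, adjusted p = 0.176), and both names were at 0 in every kisspeptin male at 4 d and in every control male at 2 d. Among abundant names, miR-22a had -0.37 in males at 2 d, -0.40 in females at 2 d and -0.21 in males at 4 d, and neither difference passed the adjustment.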

How the data were processed

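Small RNA libraries (NEXTflex Small RNA-Seq kit) were made from plasma. The authors removed adapters and the random bases at both read ends with cutadapt (2.1 per the submitters' notes, which also name Bowtie2 2.4.1 and HTSeq 0.6.0; the study's methods give another Cutadapt version), aligned them by bowtie2 against miRBase hairpins, whatever their species, and deposited raw counts per isomiR, without normalization. The first and last names are miR-122-3p and miR-459; others were not analysed here. The miRNA reads were aligned to hairpins of many species and not to a genome of the sole, so no coordinates are printed. A total of 112 sequences stand under several names (2.02% of the counts of the 10 males), and counts could be split between them.

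IsomiR counts were summed to names and tested with edgeR 4.0.16 (quasi-likelihood, TMM, R 4.3.3; limma 3.58.1) in the 20 fish at 2 d, as 4 groups, with at least 1 cpm in at least 4 fish. Differences between days were fitted in the 20 males. Alternatives were limma-voom, DESeq2 1.42.0, other filters, scalings, sums (by seed or by number) and samples, and each male left out in turn. Single values used two-sided exact permutation tests (210 splits). The test was tested on simulated data. Members, lists and named miRNAs were chosen with earlier results of these data known. Named were the 10 smallest p, the 10 highest levels, the highest mean level and the smallest p of each list and names without overlap. The label A1-11-12 does not say whether it joins more than 1 fish, and it was used as 1 sample; tank and sequencing run (2 runs, not given per library) are not in the labels. Python 3.11.15, numpy 2.4.6, pandas 2.3.3, scipy 1.17.1 and matplotlib 3.10.9 were used.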

Additional observations from a re-analysis of the deposited data

Results flagged for a closer look

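Among 64 groups of fish examined (28 names and 4 library measures in each treatment), 12 held a fish far from the rest of its group. Chance gives about 1 in 20 groups for normally distributed values, which cannot be set against this count, since some names were chosen for small p and in 5 of the 12 all other fish were at 0 counts, so that any counted fish stands apart. All values are log2 cpm, and 3.72 is a count of 0. In kisspeptin males, A1-6 was low in miR-1a-3p at 11.59 (others from 16.09 to 17.12) and high in miR-3963 at 16.34 (others from 13.69 to 14.46). A1-12 was low in miR-155 at 5.98 (others from 9.63 to 11.48). A1-11-12 was high in miR-429-3p at 8.29, A1-13 in miR-202-3p at 5.35 and A1-7 in miR-122-3p at 4.78, with the other 5 kisspeptin males at 3.72 in each.

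In control males, A2-11 was low in miR-126a-3p at 14.09 (others from 14.97 to 15.09) and high in miR-143-3p at 14.41 (others from 9.58 to 10.30). It was the only control male with counts of the main isomiR of miR-143-3p. A2-16 was low in miR-202-5p at 8.12 (others from 10.33 to 10.53) and in miR-429-3p at 3.72 (others from 7.62 to 7.89). A2-14 was high in miR-187-5p at 7.25 and A2-12 in miR-30b at 6.11, with the other 3 control males at 3.72 in each.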

How the results depend on the processing

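No paired analysis was made, because kisspeptin and control males were different fish in different tanks. The count of names with an adjusted p under 0.05, 0 in edgeR, was 1 with DESeq2 and 0 when any one male was left out. The count of isomiRs was 13 with DESeq2, 20 without a filter and from 0 to 1 with a male left out (1 without A1-10). The count of names whose effect differed between the sexes was 1 with limma-voom and 1 with DESeq2, and between the days 2 with DESeq2; with a male left out both were 0. With a male left out, the difference in names counted ran from -11.3 to 0.33 and that in the share of 21 to 22 nt from -1.92 to 0.46 percentage points. Log2 fold changes near 0 changed sign: miR-15a was 0.041 with DESeq2, 0.18 with at least 10 counts, 0.025 without the miR-1 names and miR-21, 0.13 without its most counted isomiR and from -0.26 to 0.24 with a male left out. miR-146a was 0.031 with at least 10 counts and from -0.27 to 0.13 with a male left out, miR-21 ran from -0.77 to -0.15, miR-22a from -0.50 to -0.068, miR-26b from -0.55 to 0.060, miR-126a-3p from -0.066 to 0.63 and miR-143-3p from -0.19 to 2.88 (the last without A2-11). miR-122-3p, 1 count in all, was -0.00075 with limma-voom. The alternatives added after the data had been seen also turned signs: miR-451 was -0.21 over isomiRs counted in every male, and without their most counted isomiR miR-21 was 0.26 and miR-126a-5p -0.40. The cause was not tested, other than by what each alternative leaves out. Alternatives in which a name had 0 counts in all males gave no value. The median log2 fold change of all names, -0.10, was -0.37 with limma-voom, 0.01 with DESeq2 and -0.23 without scaling factors. Depth limits the low names: a count of 0 allows up to 100.3 cpm in the shallowest library.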
